A study of Homo sapiens with 10 samples.

Results

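The chaperonin genes of U2OS cells, a human osteosarcoma line, are described here: TCP1, CCT2, CCT3, CCT4, CCT5, CCT6A, CCT7 and CCT8, which encode the 8 subunits of the cytosolic chaperonin, and HSPD1 and HSPE1, which encode the mitochondrial one. They were taken by gene symbol, as the rows of the deposited count table whose Ensembl identifiers carry those names. That gave 10 genes of 63187, and all 10 passed the filter on low counts. RNA-seq of total RNA compared 3 groups of 2 libraries each. The first was U2OS cells with knockdown of YTHDC1 that were heat-shocked, the next was control cells that were heat-shocked, and the last was control cells left unheated. YTHDC1 is a nuclear protein that reads N6-methyladenosine, a modified base of messenger RNA, and the study's design centred on genes of DNA end joining. Sample titles give the reagents as sh and other labels as si, so only the word knockdown is used. All 3 groups are of this cancer cell line, and no unheated knockdown cells were among the samples, so the knockdown was measured only in heated cells. How hot, how long and with what recovery the cells were heated is not stated in the labels. Separate cultures are not named for the libraries of a group, so the p-values speak only of the spread between these samples, and that spread may be technical.

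Chaperonins are barrel-shaped machines in which a protein folds inside a closed chamber, driven by ATP. The cytosolic one, called CCT or TRiC, is built of stacked rings in which 8 different but related subunits each hold a fixed place, and it folds actin, tubulin and many WD-repeat proteins. The mitochondrial one is a ring of identical HSPD1 (HSP60) subunits with a lid of HSPE1 (HSP10), and it folds proteins after their import into the matrix. HSPD1 and HSPE1 are known heat shock genes that lie head to head, and subunits of CCT are known targets of the heat shock factor HSF1 as well.

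Libraries held 13252370 to 15500743 counts. The 10 genes took 0.642% to 0.662% of the counts in knockdown cells, 0.728% to 0.746% in heat-shocked controls and 0.484% to 0.486% in unheated controls. YTHDC1 (ENSG00000083896, chromosome 4, 68310387 to 68350090) stood at 121 and 118 CPM in knockdown cells, 268 and 258 CPM in heat-shocked controls, with 213 and 225 CPM in unheated controls. CPM is a gene's count scaled by its library's TMM-corrected size. Its log2 fold change in the knockdown over heat-shocked controls was -1.14 with an SE of 0.05 (edgeR adjusted p = 2.66e-15, 2 libraries per group). Scaled by total counts, markers of mesenchymal cells summed to between 5514 and 6333 CPM, although COL1A2, a collagen gene of that list, stayed at or under 2.22 CPM. Blood markers summed to at most 6.37 CPM, with HBB and CD3E at 0 in all 6 libraries.

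Heat shock in control cells raised all 10 chaperonin genes. The mitochondrial pair rose most, HSPD1 by 3.81-fold and HSPE1 by 3.12-fold, whereas the CCT subunits rose by between 1.10-fold (CCT5 and CCT7) and 1.91-fold (TCP1). The call rule was an edgeR quasi-likelihood test with Benjamini-Hochberg adjusted p under 0.05 over all 17290 genes tested, and all 10 were called higher and 0 lower, with 0 lower also at unadjusted p under 0.05 and by DESeq2 and limma voom. Over all genes that rule called 20.6% higher and 23.3% lower. The median log2 fold change of the 8 CCT subunits was 0.31, against -0.03 over all genes tested. Taken without sign, the median change over all genes was 0.28, so the CCT median was near the size of a typical change. In all 10 genes both heat-shocked control libraries lay above both unheated libraries, and 72.2% of all genes tested had groups that did not overlap in either direction. Of the genes called, 46.9% were higher, and scaling by library size alone gave 36.5%. Bulk RNA cannot tell fewer cells of a kind from less RNA per cell.

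HSPD1 (ENSG00000144381, chromosome 2, 197486584 to 197500274 on GRCh38, minus strand) encodes HSP60, the ring subunit. It stood at 2048 and 1992 CPM in heat-shocked controls, against 528 and 533 CPM in unheated controls, a wide gap next to the spread within either group. Its log2 fold change was 1.93 ± 0.05 (± SE, edgeR adjusted p = 2.08e-20), and 2.30% of the genes tested had a higher one. HSPE1 (ENSG00000115541, chromosome 2, 197500379 to 197503449, plus strand) encodes HSP10, the lid. It stood at 70.5 and 58.7 CPM in heat-shocked controls, against 21.8 and 19.5 CPM in unheated controls, and both heated libraries were above both unheated ones. The log2 fold change was 1.64 ± 0.09 (edgeR adjusted p = 2.03e-12), and 3.15% of genes had a higher one.

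The level of HSPE1 is uncertain because it overlaps the readthrough gene HSPE1-MOB4, which starts at the same base and ends at 197553699. How the counting treated reads shared by overlapping genes is not stated in the labels. The readthrough gene held 1 count in all 6 libraries together. MOB4, the downstream gene, averaged 26.3 CPM in heat-shocked controls and 11.5 CPM in unheated controls (log2 fold change 1.20 ± 0.11, edgeR adjusted p = 3.19e-09). The readthrough gene spans MOB4 too, so the MOB4 level is uncertain in the same way.

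The starts of HSPD1 and HSPE1 lie 105 bases apart on opposite strands, so a short stretch is the upstream sequence of both. It is shown because the 2 genes rose together. It comes from RefSeq (GRCh38.p14) at chr2:197500275-197500378, written on the minus strand, 5′ to 3′, so it ends next to the start of HSPD1. The capitals mark CACGTG, an E-box, which lies at -22 to -17 from the start of HSPE1.
HSPD1 to HSPE1: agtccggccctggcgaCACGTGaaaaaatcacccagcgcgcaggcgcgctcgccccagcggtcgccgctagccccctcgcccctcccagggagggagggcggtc
CACGTG was found in 7.26% of the 35116 RefSeq promoter windows, each from 250 bases before to 50 after a start. No facing pair of GAA and TTC units, the heat shock element that HSF1 binds, was found between these starts.

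Heat shock element units were searched on both strands in the windows of the 9 members that have one. CCT6A has none in the table. A pair of facing units was written as GAANNTTC or TTCNNGAA, which can overlap each other in a longer run. They were found in 6.77% and 7.74% of all windows. Runs of 4 units (TTC and GAA alternating, with any pair of bases between) were found in 12 windows, 0.0342% of all, and 1 of those 12 belonged to HSPD1. The sequences below are shown because they hold those matches, which the capitals mark.
HSPD1: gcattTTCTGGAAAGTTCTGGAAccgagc
TCP1: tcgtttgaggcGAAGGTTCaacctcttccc
CCT2: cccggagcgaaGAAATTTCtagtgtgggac
CCT4: ccggcgccgctTTCTGGAAggtt
The HSPD1 stretch is chr2:197500062-197500090 on the minus strand, and its match runs from position -245 to -228 relative to a second annotated start at 197499840, inside the annotated gene. The TCP1 stretch is chr6:159789815-159789844 on the minus strand, with its match at -231 to -224 from the start. The CCT2 stretch is chr12:69585789-69585818 on the plus strand, with its match at -89 to -82 from a second start at 69585889. The CCT4 stretch is chr2:61888607-61888629 on the minus strand, with its match 38 to 45 bases after a start at 61888656. HSPE1, CCT3, CCT5, CCT7 and CCT8 had no match in their windows. A match is a description of the letters and not a measured site.

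Among the CCT subunits, TCP1 and CCT4 rose most with heat. TCP1 (ENSG00000120438, chromosome 6, 159778498 to 159789602), the alpha subunit after which the complex was first named, stood at 753 and 771 CPM in heat-shocked controls, against 398 and 399 CPM in unheated controls. The log2 fold change was 0.94 ± 0.04 (± SE, edgeR adjusted p = 6.75e-15). CCT4 (ENSG00000115484, chromosome 2, 61868085 to 61888671), the delta subunit, stood at 598 and 601 CPM in heat-shocked controls, against 364 and 350.2 CPM in unheated controls (log2 fold change 0.75 ± 0.04, edgeR adjusted p = 6.74e-13). In both genes the gap between groups was many times the distance between libraries of a group. A higher log2 fold change was found in 7.04% of all genes for TCP1 and in 9.13% for CCT4.

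The next subunits rose less. CCT6A (ENSG00000146731, chromosome 7, 56051765 to 56063989), the zeta subunit, stood at 808 and 757 CPM in heat-shocked controls, against 576 and 584 CPM in unheated controls, a 1.35-fold rise (edgeR adjusted p = 2.91e-08). CCT2 (ENSG00000166226, chromosome 12, 69585459 to 69601570), the beta subunit, stood at 408 and 401 CPM in heat-shocked controls, against 315 and 315 CPM in unheated controls, a 1.28-fold rise (edgeR adjusted p = 2.54e-07). CCT3 (ENSG00000163468, chromosome 1, 156308968 to 156338292), the gamma subunit, stood at 728 and 713 CPM in heat-shocked controls, against 607 and 599 CPM in unheated controls, a 1.19-fold rise (edgeR adjusted p = 3.76e-05). In these 3 genes every heated library was above every unheated one. CCT8 (ENSG00000156261, chromosome 21, 29056326 to 29073648), the theta subunit, stood at 854 and 799.6 CPM in heat-shocked controls, against 697 and 691 CPM in unheated controls, also a 1.19-fold rise (edgeR adjusted p = 6.52e-05). Its heated libraries were farther apart than those of most other subunits, yet both lay above the unheated ones. Higher log2 fold changes were found in 16.5% of genes for CCT6A, 19.2% for CCT2, 24.5% for CCT3 and 24.7% for CCT8.

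The smallest rises were those of CCT5 and CCT7. CCT5 (ENSG00000150753, chromosome 5, 10249921 to 10266412), the epsilon subunit, stood at 870.5 and 889 CPM in heat-shocked controls, against 803 and 793 CPM in unheated controls (log2 fold change 0.14 ± 0.04, edgeR adjusted p = 0.00953). CCT7 (ENSG00000135624, chromosome 2, 73234308 to 73253005), the eta subunit, stood at 467 and 471 CPM in heat-shocked controls, against 424 and 428 CPM in unheated controls (log2 fold change 0.14 ± 0.04, edgeR adjusted p = 0.00915). Higher log2 fold changes were found in 32.9% of genes for CCT5 and in 33.1% for CCT7. Both calls were lost when the counts were scaled by library size alone (edgeR adjusted p = 0.176 for CCT5 and 0.186 for CCT7). They were also lost without either unheated library or without the second heat-shocked control library, with edgeR adjusted p between 0.0593 and 0.137.

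**Figure D1:**
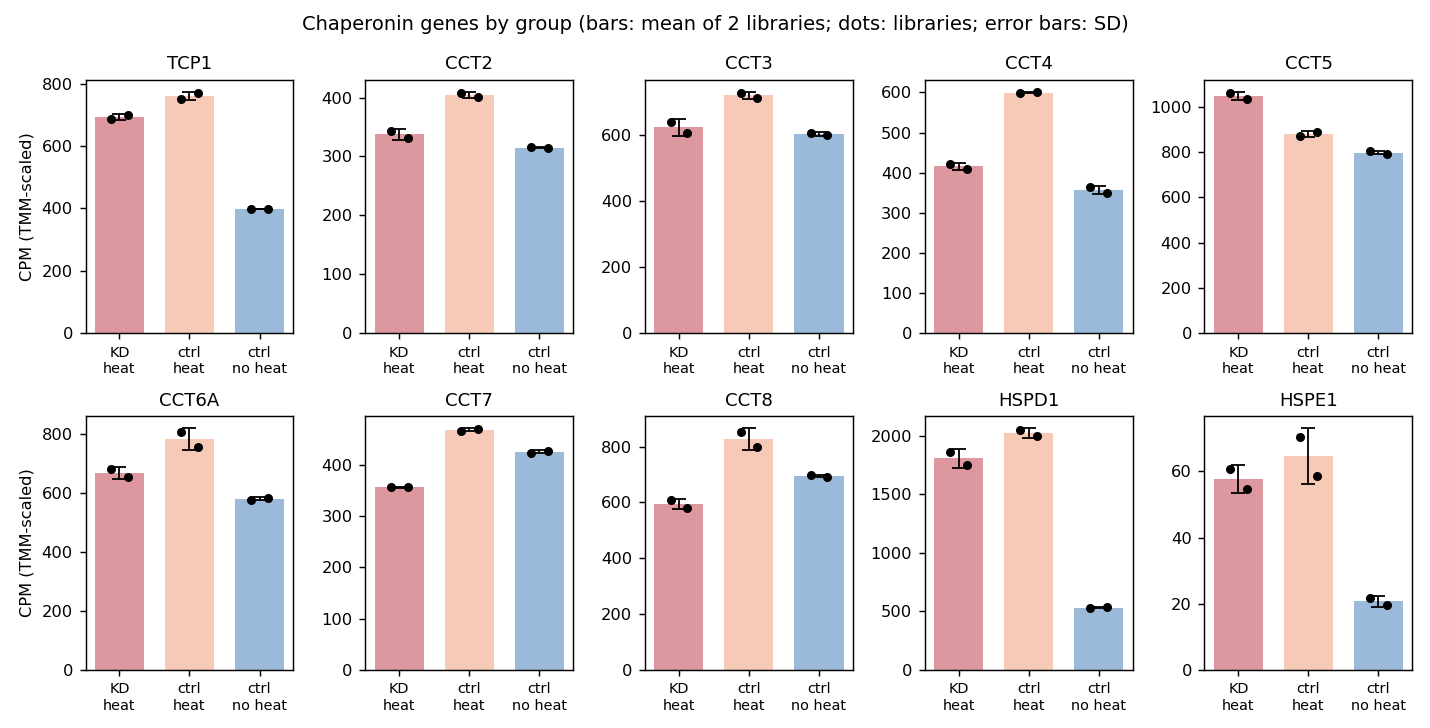
CPM (TMM-scaled) of the 10 chaperonin genes in each group, with bars for the mean of 2 libraries, dots for the libraries and error bars for the SD; each panel has its own axis from 0. HSPD1 averaged 1804 CPM in heat-shocked knockdown cells, 2020.2 CPM in heat-shocked controls and 531 CPM in unheated controls. CCT5 is the only panel in which the knockdown stands above both other groups.

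YTHDC1 knockdown in heat-shocked cells lowered most chaperonin genes and raised CCT5. Against heat-shocked controls, 8 of the 10 genes fell, 1 rose and 1, HSPE1, was not called. Over all genes tested the same rule called 27.4% higher and 27.2% lower. The 7 CCT subunits that fell did so by log2 fold changes between -0.53 (CCT4) and -0.14 (TCP1), and the median of the 8 was -0.25, against -0.0042 over all genes tested. Taken without sign, the median change over all genes was 0.37, so the CCT median was smaller than a typical change. For CCT4, which fell most, 81.6% of genes had a higher value. Groups did not overlap in 9 of the 10 genes, and in 75.9% of all genes tested. The heat-shocked control libraries are the same ones as in the heat comparison, so the values of both comparisons are not independent.

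CCT4 and CCT8 fell most. CCT4 stood at 422 and 409.8 CPM in knockdown cells, against 598 and 601 CPM in heat-shocked controls, which is 0.694 times the control level (log2 fold change -0.53 ± 0.04, edgeR adjusted p = 2.87e-10). CCT8 stood at 607 and 582 CPM in knockdown cells, against 854 and 799.6 CPM in heat-shocked controls (log2 fold change -0.48 ± 0.05, edgeR adjusted p = 3.79e-09). CCT7 followed with 357 and 356 CPM in knockdown cells, against 467 and 471 CPM in heat-shocked controls (log2 fold change -0.40 ± 0.04, edgeR adjusted p = 2.72e-08). In all 3 genes the knockdown libraries lay well below both heated control libraries.

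CCT2, CCT6A and CCT3 fell less. CCT2 stood at 344 and 331 CPM in knockdown cells, against 408 and 401 CPM in heat-shocked controls (log2 fold change -0.26 ± 0.04, edgeR adjusted p = 1.67e-05). CCT6A stood at 680.3 and 653 CPM in knockdown cells, against 808 and 757 CPM in heat-shocked controls (log2 fold change -0.23 ± 0.04, edgeR adjusted p = 0.000131). CCT3 stood at 640.2 and 605 CPM in knockdown cells, against 728 and 713 CPM in heat-shocked controls (log2 fold change -0.21 ± 0.04, edgeR adjusted p = 0.000271). None of these had overlapping groups.

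TCP1 and the mitochondrial pair had the smallest differences between knockdown and heat-shocked controls. TCP1 stood at 687 and 700.2 CPM in knockdown cells, against 753 and 771 CPM in heat-shocked controls (log2 fold change -0.14 ± 0.04, edgeR adjusted p = 0.00881), the smallest fall of the 7 subunits. That call was lost without the second heat-shocked control library (edgeR adjusted p = 0.0588). HSPD1 stood at 1861 and 1748 CPM in knockdown cells, against 2048 and 1992 CPM in heat-shocked controls (log2 fold change -0.16 ± 0.04, edgeR adjusted p = 0.00349). HSPE1 stood at 60.6 and 54.6 CPM in knockdown cells, against 70.5 and 58.7 CPM in heat-shocked controls, with overlapping groups (log2 fold change -0.16 ± 0.08, edgeR adjusted p = 0.0854). Single libraries decided the HSPE1 value. Its log2 fold change was -0.30 without the second heat-shocked control library (edgeR adjusted p = 0.00319) and -0.03 without the first (0.806), and -0.24 without the first knockdown library (0.0157) and -0.09 without the second (0.381).

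CCT5 was the exception among the subunits. It stood at 1061 and 1035 CPM in knockdown cells, against 870.5 and 889 CPM in heat-shocked controls, with both knockdown libraries higher (log2 fold change 0.25 ± 0.04, edgeR adjusted p = 2.31e-05). The difference between CCT5 and the other subunits was not itself tested. Most epithelial marker genes tested moved with the knockdown as well. Of 5 tested, 4 rose, and the list, scaled by total counts, summed to 96.8 and 91.3 CPM in knockdown cells, 69.8 and 77.5 CPM in heat-shocked controls, with 58.9 and 56.2 CPM in unheated controls. Most of each sum was CLDN4, at 58.8 and 55.2 CPM in knockdown cells and 58.4 and 67.8 CPM in heat-shocked controls. In unheated controls it was at 45.9 and 42.8 CPM. CLDN4 rose with heat in control cells (log2 fold change 0.58 ± 0.07, edgeR adjusted p = 5.75e-07). In the knockdown it was not called (-0.16 ± 0.07, edgeR adjusted p = 0.0568). EPCAM, an epithelial adhesion molecule, rose most in the knockdown (log2 fold change 1.90 ± 0.14, edgeR adjusted p = 4.74e-11). CDH1, the defining cadherin, was at 4.72 and 4.0 CPM in knockdown cells, against 1.06 and 1.33 CPM in heat-shocked controls. Mesenchymal markers moved both ways: of 7, 3 rose and 3 fell in knockdown over heat-shocked controls. Beside both marker lists, 27.4% of all genes tested were called higher in that comparison and 27.2% lower. RUNX2, a bone transcription factor, rose (0.63 ± 0.11, edgeR adjusted p = 1.85e-05) and SPARC, a matrix protein, fell (-0.51 ± 0.06, 2.11e-06). VIM, vimentin, fell by 0.47 and COL1A1, a collagen, rose by 0.42 on the log2 scale. With heat in control cells, RUNX2 fell (-0.63 ± 0.10, edgeR adjusted p = 2.47e-05). The part of these markers in the chaperonin changes was not tested.

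**Figure D2:**
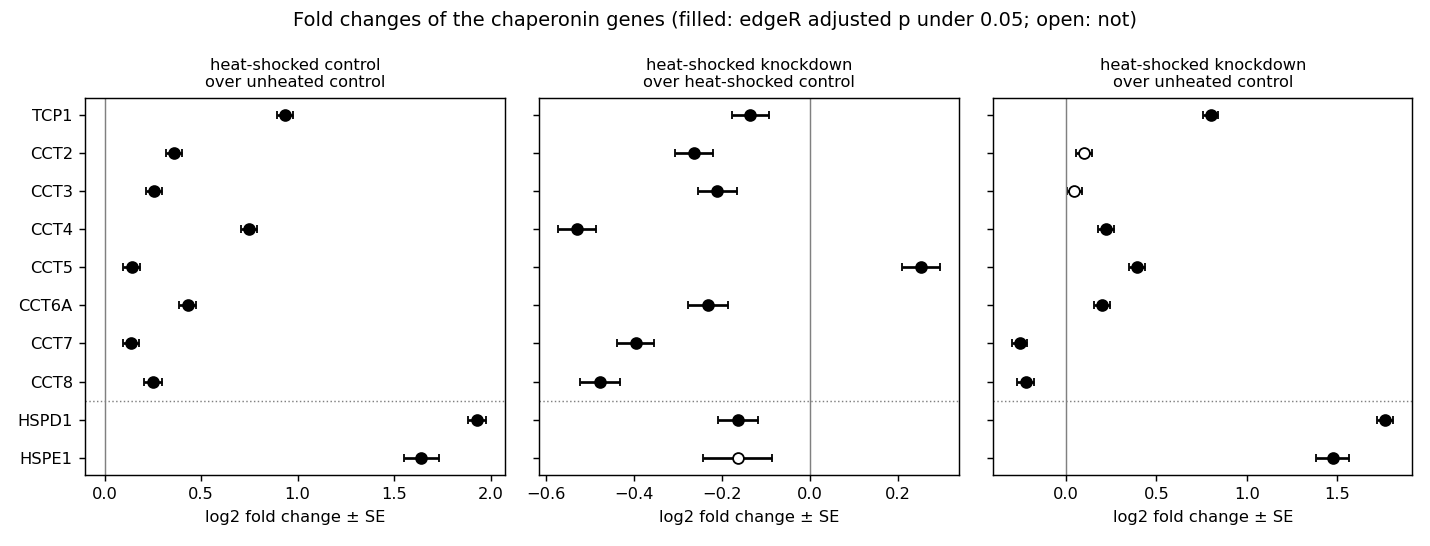
Log2 fold change of each chaperonin gene with its standard error, in heat-shocked over unheated controls, knockdown over heat-shocked controls, and heat-shocked knockdown over unheated controls; filled points had an edgeR adjusted p under 0.05, and each panel has its own horizontal scale. All 10 points lie right of 0 in the heat panel, and in the panel of knockdown over heat-shocked controls CCT5 alone lies right of 0.

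Set against unheated controls, heat-shocked knockdown cells fell into 3 sets of chaperonin genes. HSPD1, HSPE1, TCP1, CCT4, CCT5 and CCT6A were higher, CCT7 and CCT8 were lower, and CCT2 and CCT3 were not called. That is 6 higher and 2 lower of 10, where the same rule called 31.1% of all genes higher and 31.1% lower. Groups did not overlap in 9 of the 10 genes, and in 80.1% of all genes tested. The median log2 fold change of the 8 CCT subunits was 0.15, against -0.0043 over all genes. With scaling by library size alone these were 0.09 and -0.06. Taken without sign, the median change over all genes with TMM scaling was 0.44.

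HSPD1 had a log2 fold change of 1.77 ± 0.05 over unheated controls (± SE, edgeR adjusted p = 8.92e-20), and HSPE1 of 1.48 ± 0.09 (6.47e-12). TCP1 had 0.80 ± 0.04 (edgeR adjusted p = 7.16e-14), CCT5 0.39 ± 0.04 (2.28e-08), CCT4 0.22 ± 0.04 (0.000119) and CCT6A 0.20 ± 0.05 (0.000477). CCT7, at 357 and 356 CPM in knockdown cells and 424 and 428 CPM in unheated controls, was below the unheated level (log2 fold change -0.26 ± 0.04, edgeR adjusted p = 1.22e-05). CCT8, at 607 and 582 CPM in knockdown cells and 697 and 691 CPM in unheated controls, was below it too (-0.22 ± 0.05, edgeR adjusted p = 0.000148). These 2 subunits were above the unheated level in heat-shocked controls and below it in heat-shocked knockdown cells.

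CCT2 stood at 344 and 331 CPM in knockdown cells and 315 and 315 CPM in unheated controls. The groups did not overlap and the log2 fold change was 0.10 ± 0.04 (edgeR adjusted p = 0.0516), with edgeR adjusted p between 0.0125 (called, without the second knockdown library) and 0.265 (without the second unheated library) leaving out each library. CCT2 was also called with RLE size factors (edgeR adjusted p = 0.0368) and by limma voom (0.0405), and not by DESeq2 (0.125) or with library size alone (0.394). CCT3, at 640.2 and 605 CPM in knockdown cells and 607 and 599 CPM in unheated controls, had overlapping groups (0.05 ± 0.04, edgeR adjusted p = 0.370). Its sign turned, to -0.00065, without the first knockdown library.

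**Figure D3:**
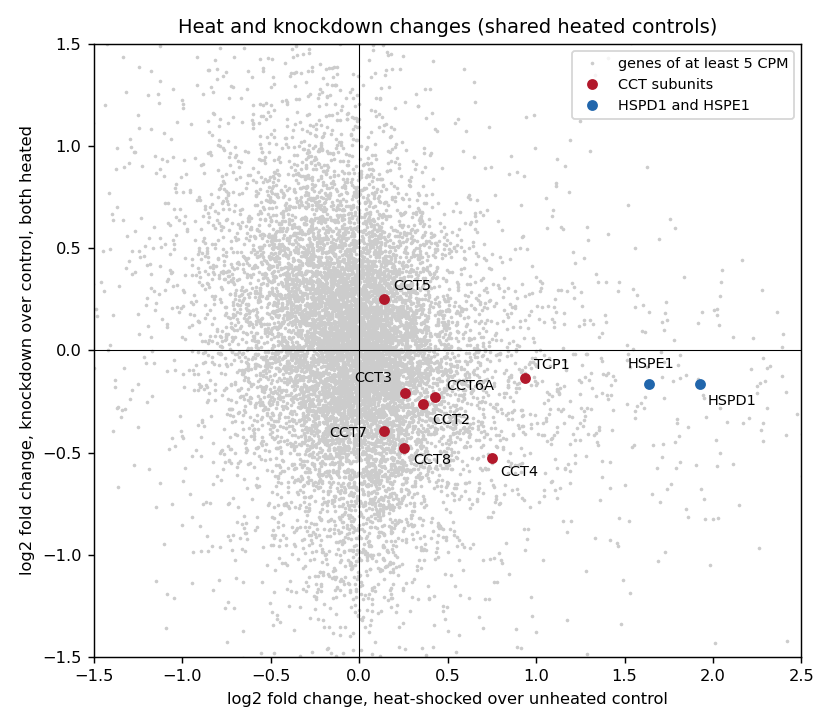
Log2 fold change in heat-shocked over unheated controls (horizontal) against knockdown over heat-shocked controls (vertical), for genes of at least 5 CPM on average (grey) and the chaperonin genes (coloured, labelled); genes beyond the axes are not drawn. The heat-shocked controls enter both axes, so the axes are not independent; HSPD1 lies at 1.93 and -0.16, CCT4 at 0.75 and -0.53, and CCT5 at 0.14 and 0.25.

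To compare subunits with each other, counts were scaled by the deposited gene length to TPM (a level per length that sums to the same total in every library). That length covers all annotated exons, so a gene with long rare exons is given too low a level. The CCT rings hold equal numbers of the 8 subunit proteins, and the messenger RNA levels per length are set beside that equal share. Protein was not measured, so a departure from an equal share is one of RNA only. The order also depends on the length used. By CPM, CCT5 was highest in each group, at 1048 CPM in knockdown cells, 880 CPM in heat-shocked controls and 798 CPM in unheated controls. In unheated controls CCT8 was highest at 759.9 ± 4.22 TPM (SD, n = 2) and CCT2 lowest at 272 ± 2.59 TPM, with CCT3, CCT6A, CCT5, CCT4, CCT7 and TCP1 in between in that order and no neighbours in the order overlapping. In heat-shocked controls the order was CCT8 (874 ± 42.0 TPM), CCT4, CCT6A, CCT3, CCT5, TCP1, CCT7 and CCT2 (338 ± 4.93 TPM), and CCT5 and TCP1, both at 551 TPM, could not be ranked. In knockdown cells the order was CCT5 (664 ± 21.3 TPM), CCT8, CCT6A, CCT3, CCT4, TCP1, CCT7 and CCT2 (285 ± 11.7 TPM). There CCT5 overlapped CCT8, CCT8 overlapped CCT6A, and CCT3 overlapped CCT4.

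The share of each subunit in the summed CCT level moved with the groups. TCP1 made up 11.8% and 12.4% of it in knockdown cells, 10.9% and 11.4% in heat-shocked controls, with 7.64% and 7.71% in unheated controls, so both heated groups were higher. CCT4 made up 13.1% and 13.1% in knockdown cells, 15.7% and 16.1% in heat-shocked controls, with 12.6% and 12.2% in unheated controls, so heat-shocked controls stood apart. CCT5 made up 15.8% and 15.9% in knockdown cells, 10.9% and 11.4% in heat-shocked controls, with 13.3% and 13.3% in unheated controls, so its share was lowest in heat-shocked controls although its CPM was not. CCT7 made up 8.36% and 8.59% in knockdown cells, 9.24% and 9.48% in heat-shocked controls, with 11.1% and 11.3% in unheated controls. CCT8 made up 15.3% and 15.1% in knockdown cells, 18.1% and 17.3% in heat-shocked controls, with 19.6% and 19.5% in unheated controls. The shares of CCT7 and CCT8 were thus lowest in the knockdown. The group means of CCT2 were 6.80% in knockdown cells, 6.84% in heat-shocked controls and 7.01% in unheated controls. Those of CCT3 were 13.7%, 13.3% and 14.7%, and those of CCT6A 14.8%, 14.5% and 14.2%, over the same groups.

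**Figure D4:**
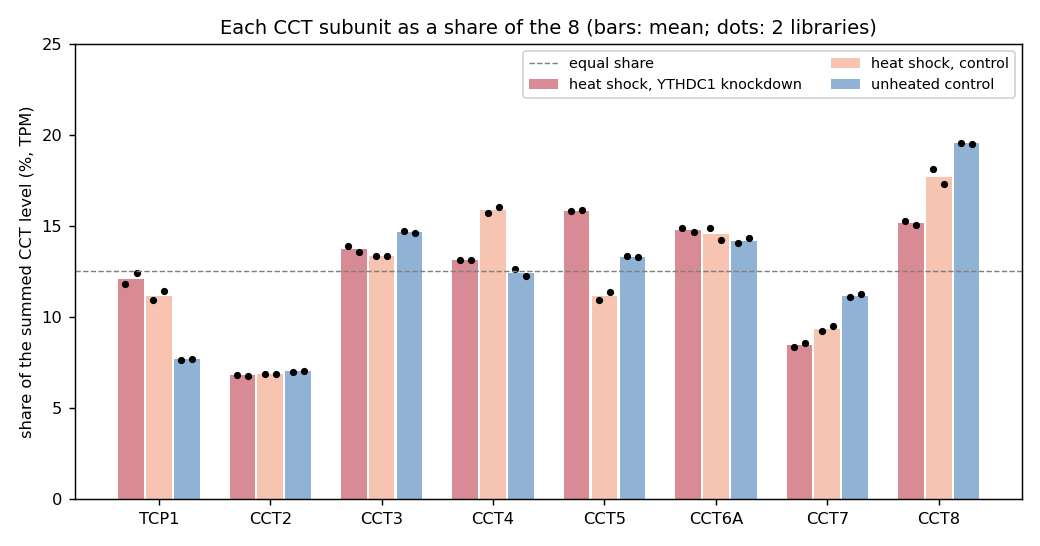
Share of each CCT subunit in the summed TPM of the 8 subunits, in percent, with bars for the mean and dots for the 2 libraries of each group; the dashed line is an equal share for all 8. CCT8 averaged 15.2% in knockdown cells, 17.7% in heat-shocked controls and 19.5% in unheated controls, and TCP1 12.1%, 11.2% and 7.67% in the same groups.

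By TPM the spread between subunits was smaller in the heated groups. The highest subunit was 2.32 and 2.35 times the lowest in knockdown cells, 2.65 and 2.53 times in heat-shocked controls, with 2.80 and 2.78 times in unheated controls. The coefficient of variation across the 8 subunits was 26.4% and 25.7% in knockdown cells, 29.6% and 27.5% in heat-shocked controls, with 32.3% and 32.1% in unheated controls. This depends on the length used. By CPM the highest subunit was CCT5 and the lowest CCT2 in each group. CCT2 averaged 337 CPM in knockdown cells, 405 CPM in heat-shocked controls and 315 CPM in unheated controls. CCT5 averaged 1048, 880 and 798 CPM in these groups, so by CPM the knockdown had the widest ratio. The summed CCT level was 4294 and 4089.9 TPM in knockdown cells, 4987 and 4883 TPM in heat-shocked controls, with 3871 and 3906 TPM in unheated controls. It was 26.9% higher in heat-shocked than in unheated controls and 15.1% lower in knockdown cells than in heat-shocked controls. The groups of these TPM quantities did not overlap. The two-sided exact permutation p was 0.333 for the summed level and for the coefficient of variation in both comparisons, the smallest that 2 libraries against 2 can give, so the design cannot pass 0.05 here.

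In mitochondria the lid and the ring were compared in the same way. HSPD1 stood at 880 and 809.9 TPM in knockdown cells, 949 and 921 TPM in heat-shocked controls, with 251 and 258 TPM in unheated controls. HSPE1 was at 13.6% and 13.1% of the HSPD1 level in knockdown cells, 14.4% and 12.3% in heat-shocked controls, with 17.3% and 15.3% in unheated controls. The heated groups overlapped each other and lay below the unheated one. The uncertain counting of HSPE1 reads applies to these shares, and so does the deposited length of HSPD1, 7629 bases.

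The human genome carries many processed copies of these genes, and reads shared with a copy could be split or lost in the counting. The count table named 60 rows after the members, most of them copies, among them 18 of HSPD1, and 28 of the 60 had any count. Copies of HSPD1 held 1.81% to 1.90% of the HSPD1 counts in knockdown cells, 2.28% to 2.36% in heat-shocked controls, and 2.51% to 2.82% in unheated controls. HSPD1P1, the copy with most counts, averaged 29.5 CPM in knockdown cells, 40.2 CPM in heat-shocked controls and 11.7 CPM in unheated controls. Its log2 fold changes were 1.79 with heat (edgeR adjusted p = 8.97e-14) and -0.45 in knockdown over heat-shocked controls (5.77e-05), the directions of HSPD1. CCT8P1 held between 1.09% and 2.31% of the CCT8 counts. The largest shares were those of HSPE1, whose copies, with the readthrough gene, came to 4.07% and 2.68% of its counts in knockdown cells, 3.16% and 3.91% in heat-shocked controls, with 9.25% and 4.61% in unheated controls. CCT6B, the testis paralog of CCT6A, had too few counts to be tested.

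Each member's nearest gene on the opposite strand was also measured where it starts within 2000 bases. TCP1 and MRPL18, a protein of the mitochondrial ribosome, start 210 bases apart. MRPL18 stood at 265 and 259.95 CPM in knockdown cells, 234 and 229 CPM in heat-shocked controls, with 69.8 and 70.2 CPM in unheated controls. It rose with heat (log2 fold change 1.73 ± 0.05, edgeR adjusted p = 4.36e-19), and unlike TCP1 it also rose in knockdown over heat-shocked controls (0.18 ± 0.04, edgeR adjusted p = 0.00117). The stretch between their starts is shown because both genes rose with heat. It lies at chr6:159789603-159789811 and is written on the minus strand, so it ends next to the start of TCP1, with the inverted CCAAT box in capitals.
TCP1 to MRPL18: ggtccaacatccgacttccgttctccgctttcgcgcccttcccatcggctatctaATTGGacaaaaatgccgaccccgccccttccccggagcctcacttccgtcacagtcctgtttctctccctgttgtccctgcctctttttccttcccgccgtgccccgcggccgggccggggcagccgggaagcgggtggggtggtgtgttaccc
CCAAT, on either strand, was found in 34.6% of all promoter windows and in those of TCP1, CCT2, CCT3 and CCT8. The facing units in the TCP1 window, given above, lie just past this stretch, in the first bases of MRPL18.

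The neighbours of CCT4 and CCT7 were not called with heat. COMMD1, a copper and NF-kB regulator that starts 54 bases from CCT4, averaged 25.8 ± 1.24 CPM in knockdown cells, 18.4 ± 0.603 CPM in heat-shocked controls and 19.4 ± 0.243 CPM in unheated controls (SD, n = 2). Its adjusted p with heat was 0.579 by edgeR, and it rose in knockdown over heat-shocked controls (log2 fold change 0.48 ± 0.09, 0.000119). PRADC1, which starts 1024 bases from CCT7, had an edgeR adjusted p of 0.667 with heat and rose in the knockdown (log2 fold change 0.84 ± 0.14, 2.48e-05). TSACC, the neighbour of CCT3, did not pass the filter.

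Actins and tubulins are the best known clients of CCT, and most of their genes fell with heat. Of 14 actin and tubulin genes, 11 fell and 0 rose with heat, with a median log2 fold change of -0.45. Among all genes tested, 20.6% were called higher with heat and 23.3% lower, with a median of -0.03. At unadjusted p under 0.05 edgeR had 0 higher and 12 lower, and DESeq2 called 0 higher and 10 lower. TUBB4B, a beta tubulin, fell most, to 219 ± 0.250 CPM in heat-shocked controls, against 491 ± 23.1 CPM in unheated controls (SD, n = 2, log2 fold change -1.17 ± 0.06, edgeR adjusted p = 1.51e-12). ACTB, the beta actin gene, stood at 6460.1 and 6679 CPM in heat-shocked controls, against 8351 and 7847 CPM in unheated controls (-0.30 ± 0.05, 2.30e-05). ACTA2, TUBB3 and TUBG1 were not called.

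In knockdown over heat-shocked controls, 8 of the 14 fell and 4 rose, with a median of -0.28. All genes tested had 27.4% called higher and 27.2% lower there. TUBA1A, an alpha tubulin, fell most among genes of at least 5 CPM, to 108 ± 1.83 CPM in knockdown cells, against 173 ± 3.10 CPM in heat-shocked controls (log2 fold change -0.67 ± 0.05, edgeR adjusted p = 2.08e-10). The risers were ACTA2, TUBB2A, TUBB4B and TUBA1C. ACTA2, smooth muscle actin, stood at 15.3 and 16.4 CPM in knockdown cells, against 2.31 and 3.23 CPM in heat-shocked controls (log2 fold change 2.51 ± 0.18, edgeR adjusted p = 1.77e-11). Over unheated controls, 11 of the 14 were lower in heat-shocked knockdown cells and 2 were higher, with a median of -0.59. For all genes tested that comparison had 31.1% called higher and 31.1% lower. Tubulin genes are close in sequence, and how the counting handled reads matching several of them is not stated, so their single values are uncertain.

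**Figure D5:**
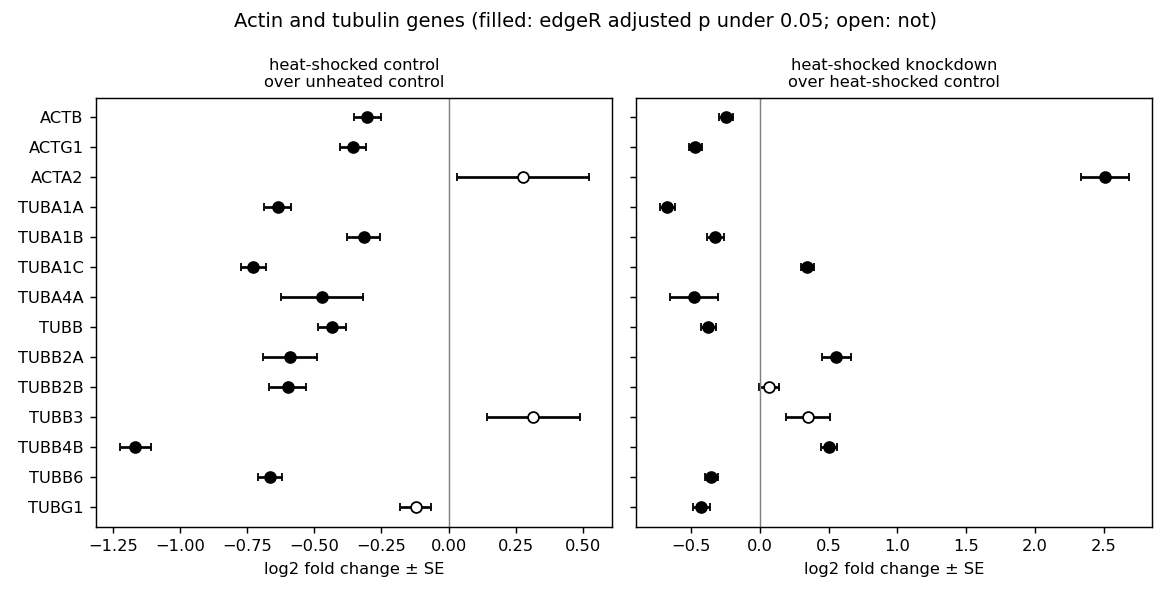
Log2 fold change with its standard error of 14 actin and tubulin genes in heat-shocked over unheated controls and in knockdown over heat-shocked controls; filled points had an edgeR adjusted p under 0.05, and each panel has its own horizontal scale. No filled point lies right of 0 in the heat panel, and ACTA2, at 2.51, is the farthest right in the knockdown panel.

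Other known or likely CCT clients, chiefly WD-repeat proteins, showed no common direction with heat. Of 15, 2 rose and 5 fell, with a median log2 fold change of -0.11, and 10 fell with scaling by library size alone. The main rule called 20.6% of all genes tested higher with heat and 23.3% lower. DCAF7, a substrate adaptor, rose most (0.39 ± 0.06, edgeR adjusted p = 1.18e-05), and RPTOR, the mTORC1 subunit Raptor, fell most (-0.81 ± 0.06, 1.10e-10). In knockdown over heat-shocked controls 8 rose and 4 fell, with a median of 0.19, where 27.4% of all genes were called higher and 27.2% lower. FZR1, an activator of the anaphase-promoting complex, rose to 55.6 ± 1.37 CPM in knockdown cells, against 32.0 ± 0.810 CPM in heat-shocked controls (SD, n = 2, edgeR adjusted p = 8.24e-10). STRAP, a WD-repeat protein of the SMN complex, fell to 86.1 ± 4.73 CPM in knockdown cells, against 210.0 ± 8.32 CPM in heat-shocked controls (edgeR adjusted p = 1.10e-15).

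Prefoldin hands unfolded actin and tubulin to CCT. Of 9 prefoldin and prefoldin-like genes, 3 rose and 1 fell with heat (median 0.11), and 1 rose and 4 fell in knockdown over heat-shocked controls (median -0.16). Shares over all genes tested were 20.6% higher and 23.3% lower with heat, and 27.4% and 27.2% in that knockdown comparison. Those shares stand beside the lists of the paragraphs below as well, and counts near them say little about a list. PDRG1, a prefoldin-like subunit, rose most with heat (0.38 ± 0.08, edgeR adjusted p = 0.000408), and URI1, another, fell (-0.22 ± 0.05, 0.000549). In the knockdown UXT, a prefoldin-like subunit, stood at 26.5 and 32.2 CPM, against 52.8 and 57.4 CPM in heat-shocked controls (-0.91 ± 0.08, edgeR adjusted p = 1.66e-09). PFDN5 rose there (0.50 ± 0.13, edgeR adjusted p = 0.00279). Over unheated controls, heat-shocked knockdown cells had 3 of the 9 higher and 6 lower, where 31.1% of all genes were higher and 31.1% lower. The 3 higher calls were lost with scaling by library size alone.

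Phosducin-like proteins and other cofactors bind CCT and tune its work. Of 6, 1 rose and 2 fell with heat (median -0.09), and 2 rose and 2 fell in knockdown over heat-shocked controls (median -0.0050). PDCD5, which binds CCT, rose with heat (0.16 ± 0.06, edgeR adjusted p = 0.0398) and fell in the knockdown to 61.3 ± 2.31 CPM, against 94.3 ± 8.11 CPM in heat-shocked controls (-0.62 ± 0.06, 1.21e-08). TXNDC9, a phosducin-like protein, fell with heat (-0.43 ± 0.07, edgeR adjusted p = 9.37e-06). PDCL3, another, rose in the knockdown (0.29 ± 0.07, edgeR adjusted p = 0.00191).

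Tubulin cofactors take tubulin over from CCT. Of 7, 3 rose and 2 fell with heat (median 0.16), and 0 rose and 3 fell in knockdown over heat-shocked controls (median -0.10). At unadjusted p under 0.05 edgeR also had 0 of the 7 higher in the knockdown, and DESeq2 called 0. TBCEL, a tubulin-binding protein, rose with heat (0.85 ± 0.17, edgeR adjusted p = 0.000211) and fell in the knockdown (-0.50 ± 0.16, 0.0124). TBCC, cofactor C, fell with heat to 9.42 ± 1.26 CPM in heat-shocked controls, against 19.3 ± 0.0636 CPM in unheated controls (edgeR adjusted p = 1.55e-07). Of the chaperonin-like proteins of Bardet-Biedl syndrome, which resemble CCT subunits, MKKS and BBS10 rose with heat and BBS12 fell. MKKS averaged 18.2 ± 1.01 CPM in heat-shocked controls and 9.81 ± 0.758 CPM in unheated controls (log2 fold change 0.89 ± 0.12, edgeR adjusted p = 1.66e-06). In knockdown over heat-shocked controls 0 of these 3 rose and 2 fell, MKKS and BBS12, with BBS12 at -1.25 ± 0.20 (edgeR adjusted p = 9.64e-06). At unadjusted p under 0.05 edgeR had 0 higher, and DESeq2 called 0.

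Most of the mitochondrial HSP70 system, which passes proteins on to HSPD1, was not called with heat. HSPA9, the matrix HSP70 that takes in imported proteins, stood at 471 and 492 CPM in heat-shocked controls, against 473 and 472 CPM in unheated controls (edgeR adjusted p = 0.636). Of 9 genes tested of that HSP70 system, 2 rose and 1 fell with heat (median 0.04). GRPEL2, a nucleotide exchange factor of it, rose most, to 48.5 ± 1.26 CPM in heat-shocked controls, against 22.5 ± 0.697 CPM in unheated controls (log2 fold change 1.11 ± 0.07, edgeR adjusted p = 9.02e-12). HSCB, a co-chaperone of iron-sulphur cluster transfer, fell (-0.51 ± 0.14, edgeR adjusted p = 0.00417). GRPEL2 rose further in knockdown over heat-shocked controls (0.25 ± 0.06, edgeR adjusted p = 0.00210), where 2 of the 9 rose and 2 fell (median 0.07). DNAJC19, a co-chaperone at the inner membrane, fell most there (-0.67 ± 0.12, edgeR adjusted p = 3.97e-05).

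Mitochondrial proteases, which clear damaged matrix and inner membrane proteins, mostly fell with heat. Of 10, 0 rose and 6 fell with heat (median -0.24), where 20.6% of all genes tested were called higher and 23.3% lower. In knockdown over heat-shocked controls 5 rose and 1 fell (median 0.23), where 27.4% of all genes were called higher and 27.2% lower. With heat edgeR had 0 of them higher at unadjusted p under 0.05 as well, and DESeq2 called 0 higher and 4 lower. CLPX, the unfoldase of the ClpXP protease, stood at 98.1 and 96.9 CPM in knockdown cells, 54.5 and 53.5 CPM in heat-shocked controls, with 113 and 119 CPM in unheated controls. Heat-shocked controls were thus lowest, with log2 fold changes of -1.10 ± 0.06 with heat (edgeR adjusted p = 3.55e-14) and 0.85 ± 0.06 in the knockdown (6.39e-12). AFG3L2, a subunit of an inner membrane protease, was also lowest in heat-shocked controls, at 182 and 188 CPM in knockdown cells, 96.3 and 93.0 CPM in heat-shocked controls, with 173 and 169 CPM in unheated controls. YME1L1, another inner membrane protease, fell in the knockdown (-0.23 ± 0.05, edgeR adjusted p = 0.000396).

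Of 12 import translocase genes, which bring HSPD1 clients in, 1 rose and 3 fell with heat (median -0.04), and 2 rose and 3 fell in knockdown over heat-shocked controls (median -0.11). TOMM7 rose with heat (0.29 ± 0.05, edgeR adjusted p = 6.32e-05) and TOMM22 fell most (-0.32 ± 0.07, 0.000575), both parts of the outer membrane translocase. TIMM9, an intermembrane space chaperone, rose most in the knockdown (0.32 ± 0.09, edgeR adjusted p = 0.005). TOMM20, an outer membrane receptor, stood at 41.3 and 34.9 CPM in knockdown cells, against 94.0 and 96.2 CPM in heat-shocked controls (-1.32 ± 0.07, edgeR adjusted p = 6.02e-14). Of 9 genes tied to the mitochondrial unfolded protein response, the signal that raises HSPD1 when matrix proteins misfold, 5 rose and 2 fell with heat (median 0.27). DDIT3, the transcription factor CHOP, rose most among genes of at least 5 CPM, to 26.1 ± 1.53 CPM in heat-shocked controls, against 10.8 ± 0.771 CPM in unheated controls (edgeR adjusted p = 5.19e-10). ATF5, the factor closest to the worm regulator of that response, fell (-0.80 ± 0.11, edgeR adjusted p = 2.96e-06). In knockdown over heat-shocked controls 1 of these 9, ATF5, rose (0.45 ± 0.12, edgeR adjusted p = 0.00233) and 2 fell (median 0.09), UBL5 most (-0.58 ± 0.08, 8.33e-07).

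For scale, 11 stress-induced chaperone genes all rose with heat, with a median log2 fold change of 3.80, so the rise of HSPD1 was smaller than the median of that list. HSPA6, an inducible HSP70, rose by 8.30, HSP90AB1 by 1.19 and HSPA8, the constitutive HSP70, by 1.27. In knockdown over heat-shocked controls 2 of the 11 rose and 4 fell, with a median of 0.0051. HSPH1, an HSP110, fell most (-0.59 ± 0.05, edgeR adjusted p = 1.02e-10), and DNAJB1, an HSP40, rose (0.18 ± 0.04, 0.000801). HSF1 itself stood at 175 and 181 CPM in knockdown cells, 146 and 148 CPM in heat-shocked controls, with 155 and 150.1 CPM in unheated controls. It was not called with heat (edgeR adjusted p = 0.396) and rose in knockdown over heat-shocked controls (0.27 ± 0.05, edgeR adjusted p = 2.92e-05).

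Genes with the most similar pair of log2 fold changes (heat, and knockdown over heat-shocked controls) were looked for among 11544 genes of at least 5 CPM, by the straight-line distance between the pairs. Nearest to the mean of HSPD1 and HSPE1, at 1.78 and -0.16, were AHSA1, an activator of HSP90, DNAJB2, CPEB3, WHRN and DNAJB6. AHSA1 lay at 1.77 and -0.15, a distance of 0.0158, and DNAJB6, an HSP40, at 1.72 and -0.24. Nearest to the CCT median, at 0.31 and -0.25, were CBLL1, RPP30, AFTPH, RPRD1A and MRPS30, with distances between 0.00841 and 0.0233. Likeness of this kind describes 2 numbers from 6 libraries and many genes lie close to the CCT median.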

How the data were processed

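RNA-seq of 6 libraries was analysed. The deposited values are whole-number counts per gene, not normalized, beside a gene length, per the file headers. The submitters' processing notes name the aligner HISAT2 2.2.1 and the counter featureCounts 2.0.2 on GRCh38, with Trim Galore 0.6.7, FastQC 0.11.8, DESeq2 1.36.0 and SAMtools 1.17 also listed, all without order or role. Strand setting and multi-mapping rules were not stated, so genes with copies or overlapping genes are uncertain. Methylated RNA immunoprecipitation samples were not analysed here.

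Counts were tested with edgeR 4.0.16 in R 4.3.3 (quasi-likelihood F test, robust, TMM scaling, filterByExpr at a minimum count of 10). All 6 libraries entered 1 fit of 17290 genes, leaving 3 residual degrees of freedom. Adjusted p-values are Benjamini-Hochberg over those genes, with 0.05 as the threshold. The common biological coefficient of variation was 3.69%. The procedure was tested on simulated data. No library was a copy of another: the chi-square per gene between replicates was 3.54 in knockdown cells, 2.69 in heat-shocked controls and 1.55 in unheated controls. Alternatives were DESeq2 1.42.0, limma 3.58.1 voom, RLE and library-size scaling, no filter, 2-group fits, a replicate block and leaving out each library.

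Symbols were found for 62666 of 63187 Ensembl identifiers, and the 521 others held at most 0.0698% of a library's counts. Gene positions and promoter sequences are from RefSeq (GRCh38.p14), and 9 of 10 members had a promoter entry. Named were all 10 members, their near neighbours and copies, and from each list the called gene with the largest rise and fall at 5 CPM or more on average, with heat and in knockdown over heat-shocked controls. Genes that the rule picks only over unheated controls were not described. ACTB, HSPA9, HSPA8, HSP90AB1, BBS10, VIM, COL1A1, and CLPX and CLDN4 in the knockdown, were named after their values were seen. So were CDH1 and COL1A2, which are under 5 CPM, and the members of short call lists. The members and lists were chosen with earlier results of these data known. Exact permutation tests were used for sums and ratios.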

Additional observations from a re-analysis of the deposited data

How the results depend on the processing

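Of 390 gene values under the alternatives, 372 kept their direction and side of the threshold, 9 lost a call, 7 gained one and 2 turned in sign. Both turns were of CCT3 in heat-shocked knockdown cells over unheated controls, at -0.009364 with library size alone and -0.0006498 without knockdown replicate 1, and 0.08634 was its highest value without a replicate. Counts of members called stayed within 1.5 times under all alternatives run.

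The median log2 fold change of the CCT subunits with heat was 0.31, and it was 0.3231 with RLE factors, 0.2385 with library size alone, 0.3376 with only the 2 groups compared, and 0.2912 to 0.337 leaving out each replicate. In knockdown over heat-shocked controls it was -0.25, and -0.285 to -0.216 leaving out each replicate. In knockdown over unheated controls it was 0.15, and 0.09383 with library size alone. The summed CCT level was 26.9% higher with heat, and 25.58% to 28.24% leaving out each heat-shocked library. The cause of these moves was not tested.

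Over all genes, heat called 3559 higher and 4033 lower with edgeR, and 2412 and 2365 with DESeq2. Of the genes called, 46.9% were higher with TMM scaling and 36.5% with library size alone, which moved the median log2 fold change of all genes to -0.10, against -0.03. Replicate numbers did not pair libraries (correlations of deviations between -0.06 and 0.06). With the number as a replicate block, HSPE1 passed the threshold in the knockdown (edgeR adjusted p = 0.0348), so 9 members fell, against 8 without it. Levels by coding length were not run, because the tables used here give no coding length. With 2 libraries per group, an exact test of sums or ratios cannot pass the threshold.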
